A study of Mus musculus with 12 samples.

Results

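Added Crtc2 was compared with a GFP control in the tibialis anterior, a fast muscle of the mouse shin, of animals that ate freely. The comparison used 6 of the series' 12 RNA sequencing libraries, chosen by their labels: 3 of fed muscle transduced with a Crtc2 expression vector and 3 of fed muscle transduced with GFP, which the series' design describes as the empty vector. All mice were C57BL/6 males aged 13 weeks. The other 6 libraries carried the same vectors in mice that had 3 rounds of fasting on alternate days (ADF), and they serve to estimate the spread between libraries and for the comparison of the diets. The labels do not give the vector's type or promoter, the share of fibres transduced, or whether GFP and Crtc2 muscles came from the same animals. Nor do they state whether each library stands for a separate mouse, and the spread behind the p-values may therefore be technical.

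Crtc2 is a coactivator that salt-inducible kinases hold in the cytoplasm by phosphorylation. Calcineurin, a calcium-activated phosphatase, releases Crtc2 to the nucleus when calcium rises. Crtc2 also enters the nucleus when cAMP rises. In the nucleus it binds Creb1 on the cAMP response element, a short promoter sequence, and raises transcription of genes such as the Nr4a receptors, Sik1 and Ppargc1a. In muscle the same signals follow exercise and adrenaline.

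The 6 fed libraries held between 24232450 and 28700850 counts. Levels are given in CPM, the counts of a gene relative to the total of its library after scaling by the trimmed mean of M values. Of 22607 genes measured, 16007 passed the filter on low counts. A floor of 3 counts in a library corresponded to 0.0928 to 0.118 CPM in fed muscle, for counting error only. Muscle fibre markers (Ckm, Acta1, Myh4, Tnnt3 and Pvalb) were abundant in every fed library and summed to 82271 to 164940 CPM. Low genes were unevenly captured within both groups. Of 2326 genes averaging 1 to 3 CPM, 32.8, 12.3 and 27.7% were at 0 in GFP replicates 1, 2 and 3, and 36.2, 5.12 and 6.92% in Crtc2 replicates 1, 2 and 3. The part of this unevenness in the results on low genes was not tested. Between 68.9 and 74.7% of counts from 2 to 21 were even numbers in each fed library.

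Crtc2 itself was higher in every library labelled Crtc2. The gene (chromosome 3, 90254163 to 90264125 on GRCm38, plus strand) stood at 29.2, 17.3 and 24 CPM in the GFP libraries and at 64.9, 58.2 and 77.9 CPM in the Crtc2 libraries. There was no overlap, and the mean went from 23.5 ± 5.97 to 67.0 ± 10.03 CPM (SD, n = 3 each), which is 2.85-fold. The log2 fold change was 1.51 ± 0.28 (SE, as for the fold changes below), with an adjusted p of 0.134 by edgeR's quasi-likelihood test over all genes. DESeq2, the other tool, called Crtc2 at an adjusted p of 0.00047. The counts do not separate the vector's transcript from that of the mouse gene. Under ADF, Crtc2 stood at 16.1 to 23.6 CPM with GFP and 31.4 to 42.8 CPM with the vector, and the difference between the diets in its response did not pass the test (interaction -0.56 ± 0.39, adjusted p = 0.764).

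Across the transcriptome no gene passed the threshold in fed muscle. The edgeR test called 0 of 16007 genes (0%) at an adjusted p of 0.05, and the smallest adjusted p was 0.134, shared by Irs2, Crtc2 and B2m. At an unadjusted p of 0.05 there were 871 genes (5.44%), of which 508 were higher (3.17%) and 363 lower (2.27%) with Crtc2. DESeq2 called 64 genes, 35 higher and 29 lower. The 3 values of each group did not overlap for 752 genes that were higher with Crtc2 (4.7% of those tested) and 614 that were lower (3.84%). The median log2 fold change over all genes was 0.0063, with quartiles at -0.41 and 0.42. Since no gene was called by the main test, all that follows are values and counts, to be read against these shares.

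Of the 10 genes of the CRTC and CREB family, 9 had a log2 fold change above 0, with a median of 0.68. That list includes Crtc2 itself, the gene on the vector, and of the other 9 genes 8 were above 0, with a median of 0.53. Crtc3, another coactivator of the family, stood at 6.30, 9.90 and 13.9 CPM with GFP and at 24.9, 15.4 and 20.6 CPM with Crtc2. Those values did not overlap, and the log2 fold change was 1.02 ± 0.38 (adjusted p = 0.877). Crtc1, the member best known from brain, stood at 13.8, 6.39 and 3.13 CPM against 22.3, 9.86 and 17.3 CPM, with overlap between the groups. Its log2 fold change was 1.08 ± 0.54.

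The transcription factors of the family were low and their groups mostly overlapped. Crem, a CREB relative whose short form ICER is itself induced by cAMP, stood at 1.2, 7.62 and 2.76 CPM with GFP and 4.46, 16.8 and 16.8 CPM with Crtc2. Only Crtc2 replicate 1 lay within the GFP range, and the log2 fold change was 1.72 ± 0.72 (adjusted p = 0.877). Creb1 stood at 9.02, 14.4 and 14.2 CPM against 20.5, 15.5 and 18.3 CPM, with no overlap. The difference was 0.53 ± 0.43 on the log2 scale. Atf1, which pairs with Creb1, differed by 0.83 ± 0.46. The acetyltransferases that CREB recruits, Crebbp and Ep300, each differed by 0.26, with errors of 0.30 and 0.35. Crebzf differed by 0.43 ± 0.42 and Creb3l2, a factor of the endoplasmic reticulum, by -0.09 ± 0.58. Under ADF the family's median was -0.0002. The difference between the diets reached an unadjusted p of 0.05 for 1 of the 10 genes, Crtc3 (interaction -1.29 ± 0.53, adjusted p = 0.597), against 7.75% of all genes tested.

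**Figure D1:**
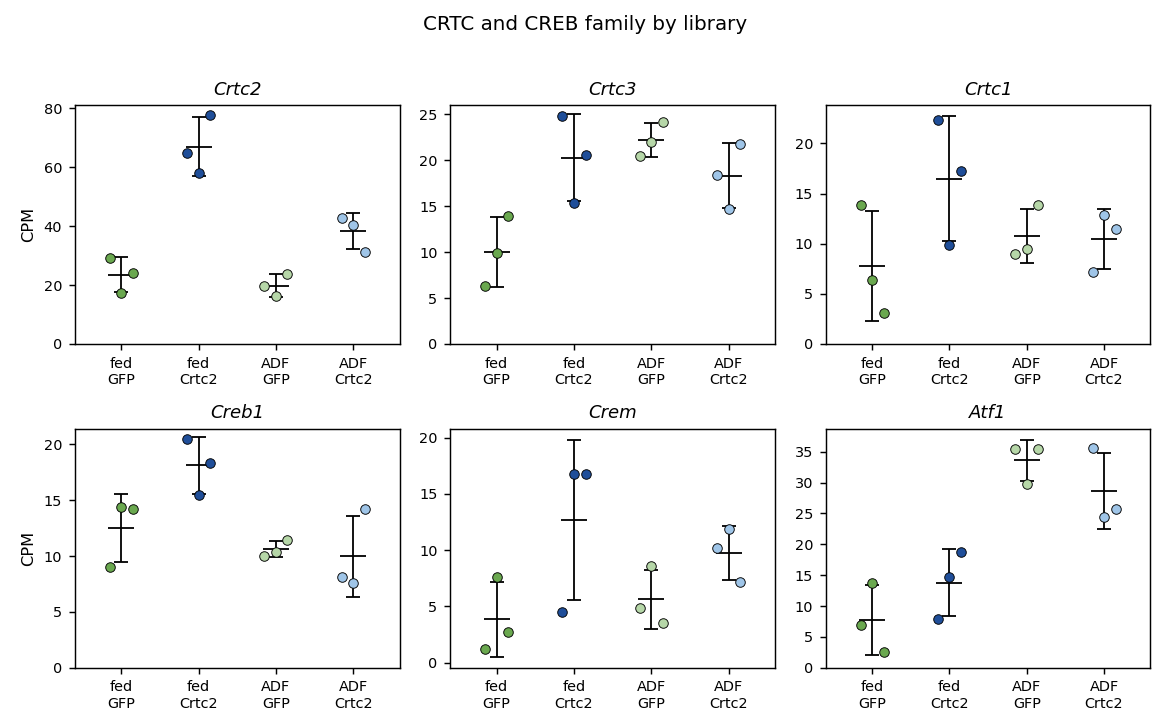
CPM of 6 CRTC and CREB genes in each library of the 4 groups (points), with the group mean and SD (bars, n = 3). In fed muscle the Crtc2 libraries lie above all GFP libraries for Crtc2, Crtc3 and Creb1, and the groups overlap for Crtc1, Crem and Atf1.

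The list of CREB and CRTC target genes held 28 genes, of which 26 were tested. In fed muscle 15 were above 0 and 11 below, with a median log2 fold change of 0.32. The median was 0.11 without GFP replicate 1 and 0.12 without Crtc2 replicate 1. The groups did not overlap for 3 higher genes and 1 lower gene, against 4.7% and 3.84% of all genes tested. An unadjusted p of 0.05 was reached by 6 higher and 1 lower, against 3.17% and 2.27% of all genes. When the fit was limited to genes averaging 10 CPM or more, the median of the list was 0.022.

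Irs2, an adaptor of the insulin receptor and a CREB target in liver, had the smallest p of all genes. It was at 0 counts in all 3 fed GFP libraries and at 2.50, 0.556 and 0.666 CPM in the Crtc2 libraries (100 counts in all). Against the floor of 3 counts per library this was at least 11.6-fold higher, for counting error alone (adjusted p = 0.134), and at least 5.71-fold without Crtc2 replicate 1. The floor takes each count as a separate molecule, and what the many even counts mean for it was not tested. Its level was higher in all 6 ADF libraries, at 9.91 to 16.9 CPM with GFP and 6.40 to 11.1 CPM with Crtc2, where the vector's log2 fold change was -0.58. Irs2 was called with DESeq2, without the filter on low counts and without Crtc2 replicate 3, and not called under the other alternatives that tested it.

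The Nr4a receptors, orphan nuclear receptors that respond within hours to adrenergic signals, had higher means with Crtc2. Nr4a3 stood at 0, 2.99 and 1.75 CPM with GFP and at 14.2, 6.86 and 4.22 CPM with Crtc2, with no overlap. Its log2 fold change was 2.40 ± 0.98 (adjusted p = 0.877). Nr4a1, the most abundant of the receptors, stood at 137, 104 and 60.8 CPM against 122, 128 and 178 CPM, and GFP replicate 1 lay within the Crtc2 range. The difference was 0.50 ± 0.24 on the log2 scale. Under ADF both groups were at 117 to 162 CPM for Nr4a1. Nr4a2, a member of the target list given here for completeness, was low, at 1.89, 0 and 0 CPM against 6.88, 3.28 and 1.52 CPM, with overlap (2.62 ± 2.10).

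Other classical targets had overlapping groups. Sik1, the kinase that feeds back on Crtc2, stood at 17.4, 13.0 and 36.4 CPM with GFP and 24, 18.5 and 13.3 CPM with Crtc2. Its log2 fold change of -0.26 ± 0.40 became 0.29 without GFP replicate 3. Ppargc1a, the coactivator of mitochondrial biogenesis, stood at 24.8, 17.7 and 44.4 CPM against 31.4, 38.1 and 16.4 CPM. The means were 29.0 ± 13.8 and 28.6 ± 11.1 CPM (SD, n = 3 each), and the sign of the difference depended on which library was left out. Per1, a clock gene with a CREB site, differed by -0.26 ± 0.33, Id1 by 0.53 ± 0.42, and the immediate early factors Egr1 and Fos by 0.72 ± 0.56 and 0.52 ± 0.59. The 22 immediate early genes tested had a median of -0.02, which turned positive without some libraries (up to 0.17), with 0 at an unadjusted p of 0.05 in either direction.

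Pde4d, a phosphodiesterase that breaks down cAMP, was lower with Crtc2. It stood at 28, 27.2 and 28.3 CPM with GFP, a narrow range, and at 11.1, 21.4 and 16.4 CPM with Crtc2. The groups did not overlap, and the log2 fold change was -0.77 ± 0.24 (adjusted p = 0.877). Under ADF the levels were 107 to 130 CPM with GFP and 125 to 190 CPM with Crtc2, and the interaction was 1.13 ± 0.33 (adjusted p = 0.516). Pde10a and Rgs2, chosen after their values were seen, had higher means. Pde10a, another phosphodiesterase, stood at 0.118, 3.26 and 0 CPM against 15.6, 8.97 and 5.11 CPM. Rgs2, which turns off G protein signals, stood at 8.46, 9.76 and 4.58 CPM against 27.6, 19.7 and 7.77 CPM, with overlap.

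**Figure D2:**
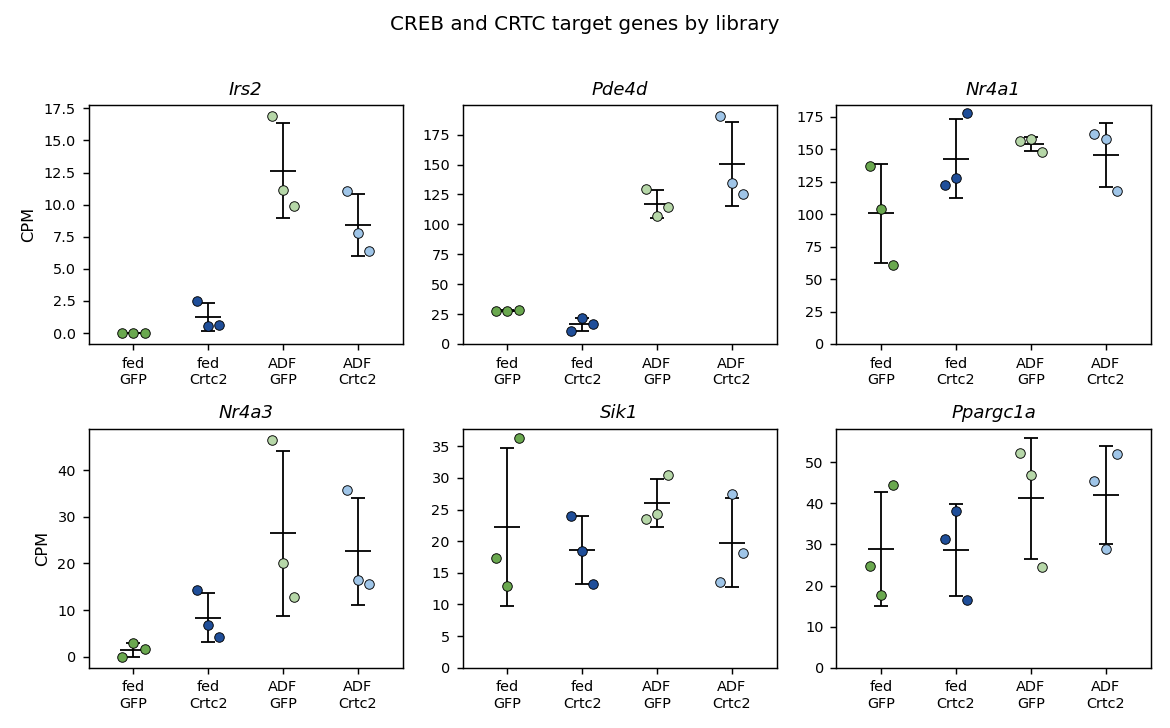
CPM of 6 CREB and CRTC target genes in each library (points), with the group mean and SD (bars, n = 3). Irs2 is at 0 in the 3 fed GFP libraries, Pde4d is lower and Nr4a3 higher in all fed Crtc2 libraries, and the fed groups overlap for Nr4a1, Sik1 and Ppargc1a.

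The cAMP pathway list (24 tested genes) centred on -0.01 (from -0.10 to 0.09 with 1 library left out), with 11 above 0 and 13 below. The lowest p belonged to Ppp3ca, the catalytic subunit of calcineurin, at 142, 117 and 91.2 CPM with GFP and 155, 225 and 141 CPM with Crtc2. GFP replicate 1 overlapped the Crtc2 group, and the log2 fold change was 0.57 ± 0.21. Pde4a stood at 41.9 to 46.3 CPM with GFP and at 96.7, 38.4 and 80.3 CPM with Crtc2, so that Crtc2 replicate 2 lay below the control range. Its difference was 0.71 ± 0.29.

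The promoters show which target genes carry the element that Creb1 binds. The letters TGACGTCA, which read the same on both strands, and the shorter TGACG with its reverse complement CGTCA, which the longer element contains, were searched in RefSeq windows from 250 bases before to 50 after each start (GRCm38.p6). Of 37 family and target genes, 28 were tested and had a window. TGACGTCA was found in 3 of them and either of the shorter forms in 19, a count that includes those 3. Among all 11096 tested genes with a window 3.36% held TGACGTCA, and a further 30.3%, which leaves out genes with TGACGTCA, held only a shorter form. The whole element was in Dusp1, Btg2 and Dio2, where it begins 95 bases before the start of Dio2. Dusp1 and Btg2 are shown as examples of the whole element, and Nr4a1, Nr4a3 and Ppargc1a as examples of the shorter form. The sequence and levels of Dio2 are not given here. Each line gives the 200 bases before the start, 5′ to 3′ on the gene's strand, with the matching letters in capitals. The windows are chr17:26508473-26508672 (minus strand) for Dusp1, chr1:134079156-134079355 (minus) for Btg2, chr15:101266646-101266845 (plus) for Nr4a1, chr4:48045105-48045304 (plus) for Nr4a3 and chr5:51567726-51567925 (minus) for Ppargc1a.
Dusp1: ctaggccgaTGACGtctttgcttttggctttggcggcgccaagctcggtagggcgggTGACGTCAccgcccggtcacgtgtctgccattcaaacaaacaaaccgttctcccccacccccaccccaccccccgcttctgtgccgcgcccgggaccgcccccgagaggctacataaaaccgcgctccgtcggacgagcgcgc
Btg2: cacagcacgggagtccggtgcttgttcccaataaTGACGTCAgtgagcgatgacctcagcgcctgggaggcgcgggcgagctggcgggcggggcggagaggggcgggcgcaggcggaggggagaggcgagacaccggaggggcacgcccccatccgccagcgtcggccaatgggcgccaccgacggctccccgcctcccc
Nr4a1: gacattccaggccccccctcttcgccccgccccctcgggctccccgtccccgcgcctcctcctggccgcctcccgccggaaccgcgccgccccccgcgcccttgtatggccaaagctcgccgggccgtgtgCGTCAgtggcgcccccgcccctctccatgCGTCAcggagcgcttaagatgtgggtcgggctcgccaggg
Nr4a3: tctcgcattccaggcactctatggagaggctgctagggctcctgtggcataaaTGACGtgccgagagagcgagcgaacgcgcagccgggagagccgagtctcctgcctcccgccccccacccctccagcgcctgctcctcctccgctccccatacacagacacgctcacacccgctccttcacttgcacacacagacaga
Ppargc1a: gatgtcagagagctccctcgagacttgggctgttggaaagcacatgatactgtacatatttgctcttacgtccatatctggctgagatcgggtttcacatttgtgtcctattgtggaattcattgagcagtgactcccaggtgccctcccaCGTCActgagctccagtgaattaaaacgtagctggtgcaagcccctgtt

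The whole element begins 143 bases before the start of Dusp1 and 166 before that of Btg2, and in fed muscle the groups overlapped for both genes. Dusp1, a phosphatase of MAP kinases, stood at 61.6, 39.2 and 31.5 CPM with GFP and at 37.8, 44.3 and 48.7 CPM with Crtc2. Its log2 fold change was -0.02 ± 0.25. Btg2, an inhibitor of proliferation, stood at 30.9, 22 and 30.9 CPM against 31.4, 26.2 and 31.3 CPM, a difference of 0.09 ± 0.29. In Nr4a3 the shorter form begins 147 bases before the start, in Ppargc1a 49, and in Nr4a1 it occurs at 69 and at 40 bases.

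Over all genes with a window, those with and without the element had similar values. The 373 genes with TGACGTCA had a median log2 fold change of 0.0053, the 3366 with only a shorter form 0.03, and the 7357 with neither 0.0053. The groups did not overlap, with Crtc2 higher, for 5.09% of the genes with TGACGTCA, 4.72% of those with a shorter form and 4.72% of those with neither. A match is a description of letters in this window, and the element can lie elsewhere.

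The lowest values relative to GFP belonged to immunoglobulin genes, the products of plasma cells. By symbol, 156 immunoglobulin genes were found, a set chosen after values were seen. They summed to 2134, 3162 and 4878 CPM in the GFP libraries and to 31.0, 36.2 and 164 CPM in the Crtc2 libraries, a ratio of means of 44.0, which was 101 without Crtc2 replicate 3. Of the 46 that were tested, 45 were below 0, 25 did not overlap with Crtc2 lower, and 0 did so with Crtc2 higher. Of the 156 genes, 75 had counts in fed GFP libraries and 0 in all fed Crtc2 libraries. Such genes can pass the filter on low counts only through the libraries where they are high. The direction of those tested was thus partly fixed by the filter, and these counts are a description. Between 46 and 64 of the 156 genes had a count in a GFP library, and 8 to 16 in a Crtc2 library.

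Igkc, the constant part of the kappa light chain (chromosome 6, 70726435 to 70726966), stood at 1014, 1558 and 2018 CPM with GFP and at 5.51, 5.22 and 16.4 CPM with Crtc2. The groups were far apart, with means of 1530 ± 502 and 9.03 ± 6.35 CPM (SD, n = 3 each) and a log2 fold change of -7.41 ± 1.42 (adjusted p = 0.719). Ighg1, a heavy chain of IgG, stood at 82.4, 274 and 819 CPM against 0.235, 0.0309 and 0.185 CPM, the latter from 12 counts in all. Ighg2c and Jchain, chosen after their values were seen, showed the same order. Ighg2c stood at 653, 698 and 1029 CPM against 5.08, 5.63 and 7.07 CPM. Jchain, which joins IgM and IgA chains, stood at 54.0, 80.2 and 191 CPM against 0.704, 2.04 and 0.962 CPM.

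Whether these genes were called depended on the tool, the filter and the libraries in the fit. DESeq2 called Igkc (adjusted p = 6e-10), Ighg1, Ighg2c and Jchain, and edgeR with no filter on low counts called these 4 genes too. With only the 6 fed libraries in the fit, 7 genes were called, all lower with Crtc2: Ighg1, Ighg2c, Ighg3, Igkc, Igkv6-15, Igkv9-124 and Jchain. Igkc then had an adjusted p of 2.1e-05. Under ADF summed immunoglobulin was 413 to 9524 CPM in the GFP libraries and 47.8 to 83.3 CPM in the Crtc2 libraries.

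Ms4a1 and Cd79a, markers of B cells before the plasma stage, were low in both fed groups. Ms4a1 (CD20) stood at 6.97, 0.544 and 0 CPM with GFP and 0 in all 3 Crtc2 libraries, and Cd79a at 0.068 to 3.27 CPM against 0 to 2.59 CPM. Ighm stood at 162, 147 and 162 CPM with GFP and at 12.4, 18.9 and 132 CPM with Crtc2, so Crtc2 replicate 3 lay close to the controls. The 15 tested B and plasma cell markers were all below 0, with a median of -3.51 (-5.29 without Crtc2 replicate 3), and 7 did not overlap. Fewer cells of a type and less RNA per cell cannot be told apart in these bulk libraries.

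Genes of class I antigen presentation were mostly lower with Crtc2. B2m, the light chain of every class I molecule (chromosome 2, 122147686 to 122153083), stood at 894, 592 and 688 CPM with GFP and at 269, 348 and 418 CPM with Crtc2. With no overlap, the mean was 2.10-fold lower, from 725 ± 154 to 345 ± 74.7 CPM (SD, n = 3 each). The log2 fold change was -1.07 ± 0.20 (adjusted p = 0.134), and B2m was called with DESeq2 at 6.8e-05. It was also called without GFP replicate 2 (adjusted p = 0.0227) and without Crtc2 replicate 3 (0.0483), while leaving out the other 4 fed libraries in turn gave no call. H2-Q7 stood at 35.7, 24 and 58.4 CPM against 3.36, 8.19 and 22.3 CPM, with no overlap. The heavy chains H2-K1 and H2-D1 were chosen after their values were seen. H2-K1 stood at 1186, 732 and 784 CPM against 301, 288 and 686 CPM, and H2-D1 at 660, 378 and 378 CPM against 130, 192 and 370 CPM. In both genes Crtc2 replicate 3 lay just under the lowest control. Of the 18 class I genes 15 were below 0, with a median of -0.77. In 4 the groups did not overlap, against 3.84% of all genes tested with Crtc2 lower. Without Crtc2 replicate 3 the median was -1.26.

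Class II genes, which antigen-presenting cells express, were all 10 below 0 with a median of -0.77 (-1.49 without Crtc2 replicate 3 and -0.38 without Crtc2 replicate 1), and 1 did not overlap. That gene was Ciita, the master regulator of the class, at 7.05, 4.46 and 13.3 CPM against 2.03, 1.48 and 2.48 CPM. H2-DMb1, which loads peptides, stood at 37.2, 11.4 and 13.8 CPM against 2.70, 3.59 and 17.9 CPM. Here again Crtc2 replicate 3 lay within the GFP range.

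Of 38 interferon response genes 31 were below 0, with a median of -0.42. In 4 the groups did not overlap, against 3.84% of all genes tested with Crtc2 lower. The median was -0.74 without Crtc2 replicate 3, -0.09 without Crtc2 replicate 1 and -0.26 without GFP replicate 1. Gbp2, a guanylate-binding protein, stood at 42.8, 38.2 and 55.7 CPM with GFP and at 16.7, 25.9 and 25.3 CPM with Crtc2 (log2 fold change -1.01 ± 0.35). Gbp6 stood at 43.3, 8.26 and 12 CPM against 7.58, 3.06 and 4.85 CPM. Among 22 cytokines and chemokines the median was -0.22, and it was -0.59 without Crtc2 replicate 3, -0.54 without GFP replicate 3 and -0.13 without Crtc2 replicate 1. Ccl21a, a chemokine of lymphatic vessels, was at 42.8, 13.1 and 26.0 CPM against 0.469, 9.0 and 3.41 CPM. Il18 was at 0 in all GFP libraries and in Crtc2 replicate 1, and at 1.27 and 0.925 CPM in the other Crtc2 libraries.

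Macrophage markers lay on both sides of 0. Of the 20 tested, 13 were below 0 and 7 above, 5 did not overlap on the low side and 1 on the high side, and the median was -0.44 (-0.23 without GFP replicate 1). C1qc, a chain of complement C1q made by macrophages, stood at 61.0, 73.2 and 63.3 CPM against 33.9, 17.9 and 47.3 CPM. The groups did not overlap (log2 fold change -0.995 ± 0.30). Cd68 stood at 19.5, 42.3 and 29.0 CPM against 16.4, 11.5 and 23 CPM. Lyve1, a marker of lymphatic endothelium and some resident macrophages, was the gene on the high side, with 1 count in the GFP libraries together and 0.547, 1.48 and 1.89 CPM with Crtc2. Of 10 complement genes 9 were below 0 (median -0.66, or -0.36 without GFP replicate 1 and -0.37 without Crtc2 replicate 1). Serping1, the C1 inhibitor, stood at 87.7 to 156 CPM with GFP and at 61.3 to 89.6 CPM with Crtc2.

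T and NK cell markers were low. Of 24 genes 20 were below 0 (median -0.79, or -1.91 without Crtc2 replicate 3 and -0.38 without GFP replicate 1), and 0 reached an unadjusted p of 0.05 in either direction. Cd3e, part of the T cell receptor complex, stood at 6.18, 3.09 and 0 CPM against 0, 0.680 and 3.66 CPM, and Cd8a at 23.3, 5.24 and 10.8 CPM against 0, 0.773 and 8.44 CPM. Gzma and Prf1, killer cell genes, were at 0 in the GFP libraries and at most at 0.835 and 1.07 CPM with Crtc2. The 7 defining markers of these cells were summed in each library, and the sums were 28.3 to 81.5 CPM with GFP and 10.01, 10.4 and 57.0 CPM with Crtc2. Ptprc (CD45), carried by all leukocytes, stood at 21.3, 21.2 and 8.63 CPM against 9.38, 8.22 and 12.9 CPM. Coro1a and Itgal differed by -0.78 ± 0.39 and -1.61 ± 0.87.

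**Figure D3:**
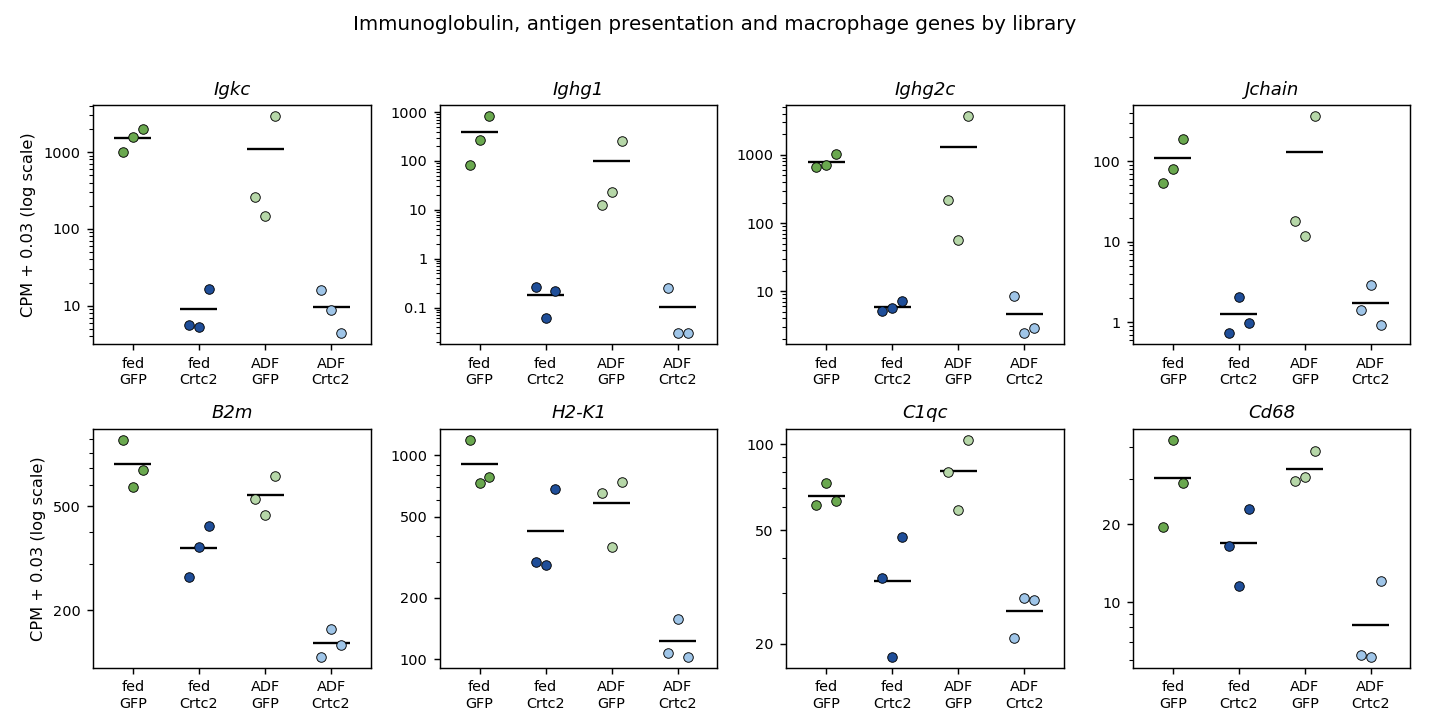
CPM plus 0.03 on a log axis for 4 plasma cell, 2 class I and 2 macrophage genes in each library (points), with the mean of each group (line). For Igkc, Ighg1, Ighg2c and Jchain all fed Crtc2 libraries lie far below all fed GFP libraries, while the third fed Crtc2 library lies close to the controls for H2-K1.

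Matrix and stromal genes were mostly lower. Of 27 extracellular matrix genes 25 were below 0, with a median of -0.51. In 4 the groups did not overlap, against 3.84% of all genes tested with Crtc2 lower. The median was -0.93 without Crtc2 replicate 2, -0.25 without Crtc2 replicate 1 and -0.22 without GFP replicate 3. Mmp2, a gelatinase, stood at 62.6, 66.6 and 87.2 CPM with GFP and at 42.2, 53.2 and 39.6 CPM with Crtc2 (log2 fold change -0.68 ± 0.24). Loxl1, which crosslinks elastin, stood at 25.2, 18.1 and 33.9 CPM against 12.5, 15.3 and 14.5 CPM. Thbs4, a thrombospondin of tendon and muscle, stood at 182, 138 and 181 CPM against 95.4, 104 and 118 CPM, again with no overlap. Of 13 fibroblast markers 11 were below 0 (median -0.33). That median turned to 0.05 without Crtc2 replicate 1, and was -0.74 and -0.65 without Crtc2 replicates 2 and 3 and -0.59 without GFP replicate 2. Ly6a (Sca-1) stood at 161, 108 and 106 CPM against 62.8, 56.5 and 90.4 CPM, Dpt differed by -0.94 ± 0.34 and Pdgfra, the marker of fibro-adipogenic cells, by -0.93 ± 0.57. All 9 pericyte and smooth muscle markers were below 0 with overlapping groups (median -0.68, or -0.30 without GFP replicate 1), among them Cspg4 (-1.51 ± 0.48) and Acta2 (-0.68 ± 0.24). The 15 endothelial markers centred on 0.08, a median that ranged from -0.13 to 0.28 with 1 library left out. Pecam1 stood at 71.5 to 158 CPM with GFP and 109 to 128 CPM with Crtc2, and Flt1, a VEGF receptor, at 24.3 to 37.4 CPM against 35.7 to 68.4 CPM. The part of these other cells in the results on matrix genes was not tested.

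Several genes of embryonic and slow sarcomeres were lower. The wider list of 23 regeneration and denervation genes was split, with 11 above 0 and 12 below. Its median was -0.01 (-0.20 to 0.21 with 1 library left out). In 2 of them the groups did not overlap with Crtc2 lower, against 3.84% of all genes tested, and in 0 with Crtc2 higher. Myl4, the embryonic light chain of myosin, stood at 197, 115 and 115 CPM with GFP and at 62.4, 69.9 and 66.3 CPM with Crtc2. The groups did not overlap, and the log2 fold change was -1.10 ± 0.26 (adjusted p = 0.553). Myl4 was called with DESeq2 (adjusted p = 0.037) and by edgeR with no filter on low counts (0.0067). Tnnt2, the cardiac and embryonic troponin T, stood at 74.3, 37.5 and 42.2 CPM against 12.2, 24.5 and 17.7 CPM (-1.50 ± 0.37). Myh3, the embryonic myosin heavy chain, overlapped, at 114 to 247 CPM against 56.1 to 162 CPM.

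Of 11 slow fibre genes 9 were below 0, with a median of -0.73. Tnni1, the slow troponin I, stood at 73.1, 64.2 and 56.7 CPM against 43.4, 26.7 and 17.0 CPM. Tnnc1 and Myl2, chosen after their values were seen, stood at 20.6 to 60.1 against 10.6 to 13.8 CPM and at 12.8 to 53.5 against 0.0391 to 9.11 CPM. Myh7, the slow heavy chain, stood at 28, 7.14 and 7.75 CPM against 8.68, 3.68 and 8.33 CPM. Myl3, a light chain shared by slow fibres and heart, was higher, at 110, 32.5 and 112 CPM with GFP and 303, 298 and 142 CPM with Crtc2, with no overlap (1.54 ± 0.47). Myoz2, the other slow fibre gene above 0, differed by 0.48.

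Fast fibre genes centred on 0.03 (-0.24 to 0.17 with 1 library left out). Myh2, the heavy chain of oxidative fast fibres, stood at 759, 613 and 1040 CPM with GFP and at 2215, 1811 and 848 CPM with Crtc2. Myh4, the heavy chain of the fastest fibres, stood at 43772, 37014 and 22431 CPM against 19971, 16842 and 47651 CPM. Crtc2 replicate 3 thus parted from the other Crtc2 libraries in both, with the highest Myh4 of the 6 and a Myh2 level inside the GFP range. Sln, an inhibitor of the calcium pump that was chosen after its values were seen, showed the same split, at 107, 129 and 115 CPM against 241, 243 and 103 CPM. Without Crtc2 replicate 3 the log2 fold change of Myh2 was 1.32 in place of 1.01, and it was not called in either fit. Myh2 was called by edgeR with no filter on low counts (adjusted p = 0.00056). Of 14 satellite cell and myogenic factors 8 were above 0 and 6 below, and the groups overlapped for all of them. Their median was 0.06 (-0.19 to 0.08 with 1 library left out). Among them, Myod1 stood at 32.6, 23.5 and 8.89 CPM against 7.51, 8.87 and 13.6 CPM. Mymk, a fusion protein, stood at 12.5 to 23 CPM against 4.55 to 12.7 CPM, and Pax7 of satellite cells at 0.782 to 7.41 CPM against 2.70 to 5.90 CPM. Mki67, a proliferation marker, stood at 8.20 to 28.8 CPM against 2.35 to 13.3 CPM.

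Fuel metabolism lists stayed near the median of all genes. The medians were 0.05 for 25 fatty acid oxidation genes, 0.03 for 47 genes of oxidative phosphorylation, 0.003 for 29 genes of the TCA cycle and pyruvate dehydrogenase, 0.009 for 22 genes of glycolysis, 0.07 for 19 genes of glycogen metabolism and 0.03 for 19 PGC-1 and nuclear receptor regulators. With 1 library left out these medians stayed between -0.11 and 0.13, except that of glycogen metabolism, which reached 0.37 without GFP replicate 2. For oxidative phosphorylation the extremes were -0.26 and 0.26. In 1 of the 47 the groups did not overlap, with Crtc2 higher, against 4.7% of all genes tested. Pdk4, which phosphorylates and inhibits pyruvate dehydrogenase, stood at 111, 158 and 355 CPM with GFP and at 403, 477 and 139 CPM with Crtc2. Crtc2 replicate 3 was again on the side of the controls, and the log2 fold change was 0.71 ± 0.46. In all ADF libraries Pdk4 stood at 1801 to 3398 CPM.

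Some metabolic genes were apart between the groups, and others overlapped. Pnpla2, the lipase that starts triglyceride breakdown, stood at 166, 174 and 167 CPM with GFP and at 241, 245 and 205 CPM with Crtc2. All Crtc2 values lay above all GFP values, and the mean was 1.36-fold higher (log2 fold change 0.45 ± 0.19, adjusted p = 0.877). Ogdh, of the TCA cycle, stood at 499, 508 and 713 CPM against 795, 818 and 728 CPM (0.44 ± 0.18). Gaa, the lysosomal enzyme that degrades glycogen, stood at 77.5, 114 and 47.0 CPM against 119, 111 and 208 CPM, with overlap. Ppp1r3a, which targets a phosphatase to glycogen, differed by 0.49 ± 0.21, Gapdh by -0.41 ± 0.18, Acadvl by -0.45 ± 0.23 and Lpl by 0.36 ± 0.20. The groups overlapped for Gapdh and Acadvl. Cidec, a lipid droplet protein of fat cells, was at 0.906 to 4.28 CPM with GFP and at 0, 0 and 0.518 CPM with Crtc2. Adipoq, also of fat cells, was at 0 to 3.34 CPM against 0 to 1.27 CPM, with overlap. The 8 adipocyte markers tested were split, with 4 above 0, among them Cidea (log2 fold change 2.12), and 4 below. Their median was -0.16 (-0.85 to 0.16 with 1 library left out).

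Among growth and wasting genes, Fbxo32 (atrogin-1), the ubiquitin ligase of atrophy, stood at 81.5, 108 and 128 CPM against 85.1, 170 and 105 CPM, and Mstn (myostatin) at 6.10 to 13.1 CPM against 5.79 to 17.7 CPM. Igfbp4, which binds insulin-like growth factors, stood at 96.8, 47.1 and 132 CPM against 34.5, 53.1 and 49.7 CPM (-1.005 ± 0.29). It was called without GFP replicate 2 (adjusted p = 0.035) and, with all libraries, when no filter on low counts was used (adjusted p = 0.03). Cited2, a hypoxia-responsive coregulator, was high in 1 Crtc2 library, with 62.8, 24.5 and 16.2 CPM against 13.0 to 19.5 CPM. Hspb6 and Bag3, chaperones of the sarcomere, stood at 1555 to 2070 CPM against 1878 to 3215 CPM and at 82.4 to 108 CPM against 114 to 147 CPM.

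Of the 22 splicing factors tested 21 were above 0, with a median of 0.22 (0.14 without GFP replicate 2). In 4 the groups did not overlap, against 4.7% of all genes tested with Crtc2 higher. Srsf2 stood at 74.2, 42.9 and 75.9 CPM with GFP and at 101, 102 and 85.5 CPM with Crtc2, and Srsf11 at 83.0, 64.4 and 90.8 CPM against 114, 130 and 92.4 CPM. Neat1, a nuclear RNA that builds paraspeckles, stood at 1810, 1458 and 1695 CPM against 2704, 2478 and 1838 CPM, with no overlap (0.50 ± 0.19). Malat1 differed by 0.42 ± 0.27. Of the 9 nuclear-retained and imprinted noncoding RNAs tested, 5 were above 0 and 4 below. Their median was 0.10 (-0.13 to 0.52 with 1 library left out). Under ADF, Neat1 stood at 112 to 291 CPM.

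**Figure D4:**
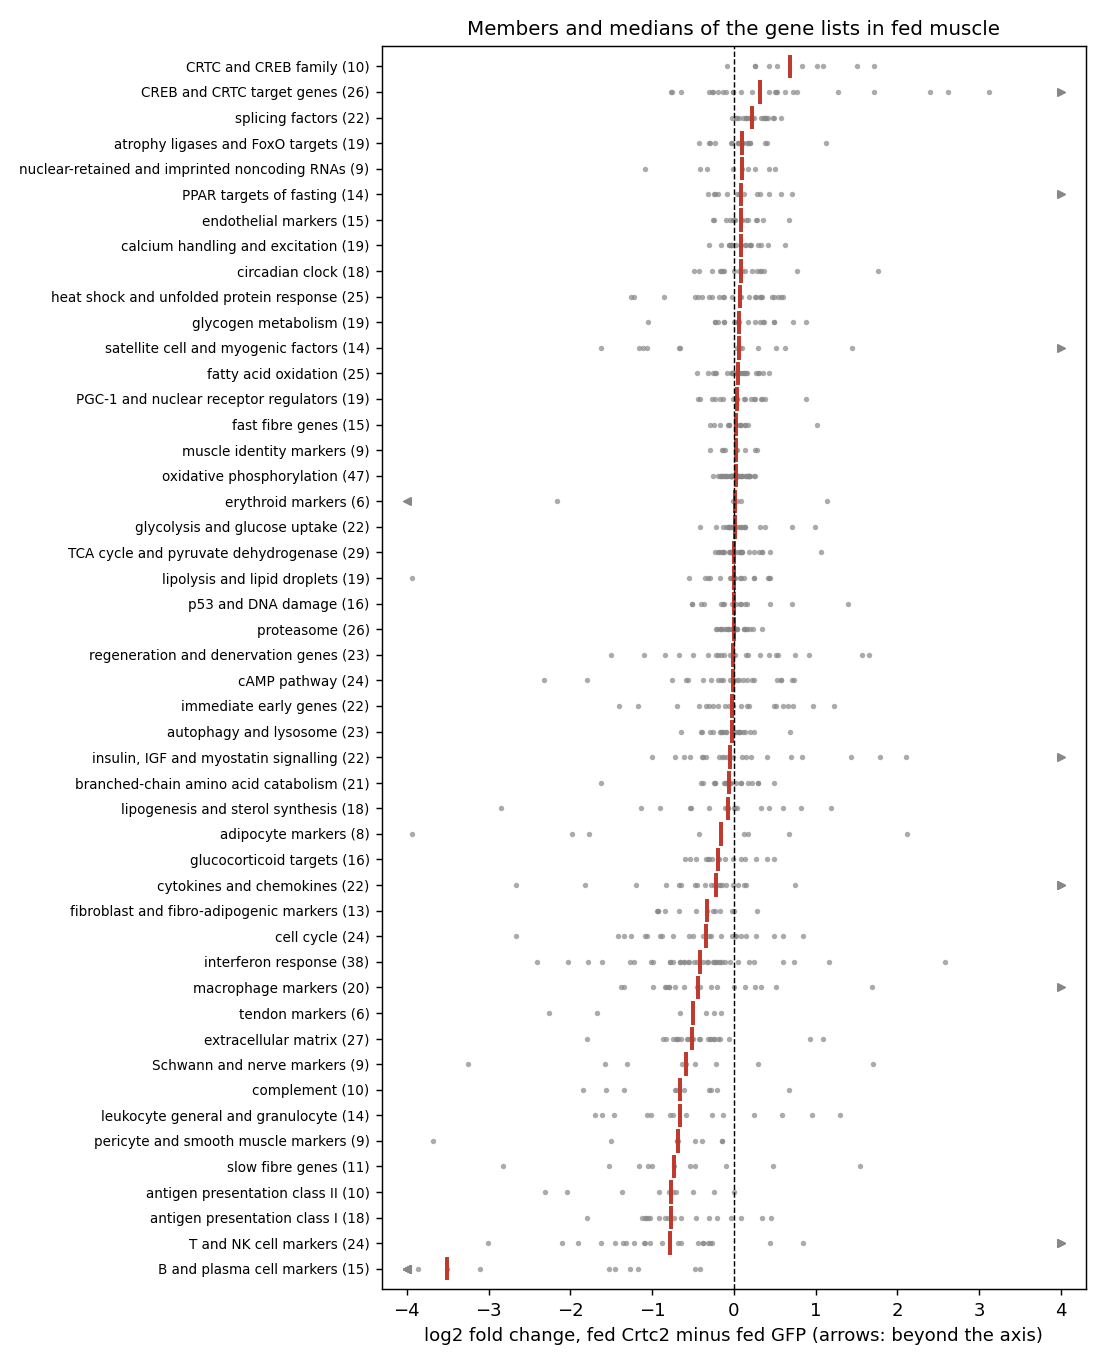
Log2 fold change of fed Crtc2 minus fed GFP for each tested member of 48 gene lists (grey points, arrows beyond the axis), with the list's median (red bar), the number of tested members in brackets and the median of all genes (dashed line). B and plasma cell markers lie lowest with a median of -3.51, the CRTC and CREB family highest with 0.68, and the lists of fuel metabolism lie near 0.

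The 10 smallest p-values included further genes, chosen after their values were seen. Among them were the immunoglobulin genes Ighv1-76 and Igkv8-21, with adjusted p-values of 0.211 and 0.306 by edgeR. Their means were 13.3 and 10.9 CPM with GFP, and they had 0 counts in the Crtc2 libraries. Vash1, an inhibitor of vessel growth, was at 0 in the GFP libraries and at 3.44, 0.309 and 3.15 CPM with Crtc2, at least 21.5-fold higher against the floor. Rap2c, a small GTPase, stood at 8.15, 11.1 and 6.57 CPM against 40.4, 29.3 and 15.8 CPM (1.73 ± 0.37, adjusted p = 0.306). Stk24, a protein kinase, stood at 20.7, 14.2 and 25 CPM against 1.33, 5.6 and 8.18 CPM (-1.98 ± 0.46, adjusted p = 0.553). DESeq2 called Vash1, Rap2c and Stk24 (adjusted p = 5e-05, 0.0066 and 0.019). So did edgeR with no filter on low counts (0.022, 0.0028 and 0.00082). In ADF muscle the groups for Rap2c and Stk24 differed by -0.19 and 0.03.

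Under ADF the same vectors gave 116 called genes (0.725% of 16007), 12 higher (0.075%) and 104 lower (0.65%) with Crtc2. Without overlap between the groups were 9.6% of all genes with Crtc2 higher and 11.8% with Crtc2 lower. The 2 comparisons share no library, although they share the estimate of the spread. Of the 104 lower genes, 91 were also below 0 in fed muscle, 25 did not overlap on the low side there and 1 on the high side. Their median log2 fold change was -1.85 under ADF and -0.52 in fed muscle. Because these genes were chosen for a large difference under ADF, the smaller fed value is a description. Of the 12 higher genes, 5 were above 0 in fed muscle, with a median of -0.04. B2m was among the lower genes, at -1.88 under ADF (adjusted p = 0.000122) and -1.07 in fed muscle. The interaction test, which asks whether the response to Crtc2 differs between the diets, called 0 of 16007 genes with edgeR. Its smallest adjusted p was 0.174, at Irs2, and 1240 genes (7.75%) reached an unadjusted p of 0.05. DESeq2 called 111 genes in it, 26 with the higher response under ADF and 85 with the lower.

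**Figure D5:**
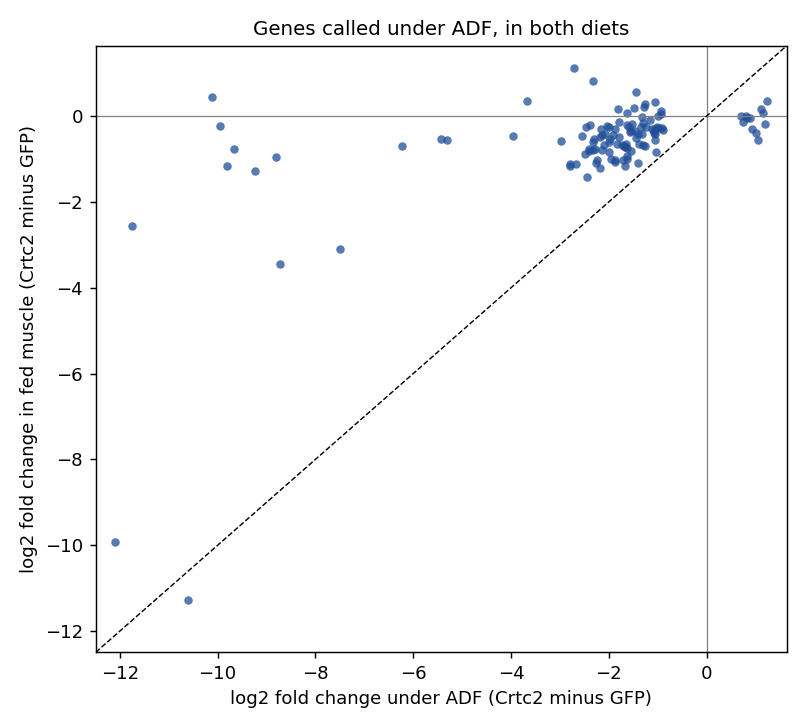
Log2 fold change of Crtc2 against GFP in fed muscle (vertical axis) against that under ADF (horizontal axis) for the 116 genes called under ADF (points), with the line of equal values (dashed). Of the 104 genes lower under ADF 91 lie below 0 in fed muscle, most of them nearer to 0 than under ADF.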

How the data were processed

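The authors deposited raw counts of reads per gene, with no normalization in the table. The submitters' processing notes list DESeq2 1.18.1, featureCounts (Subread 1.6.1), HISAT2 2.0.5 and SAMtools 1.7 as tools, and mm10 and GRCm38 as builds. The labels' protocols name 2 library kits, NEBNext Ultra II directional and TruSeq Stranded mRNA, and do not say which library was made with which. No sequencing batch is given. The 1 row without a gene name was left out. The excess of even counts was not explained by the sources used here.

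Counts were tested with edgeR 4.0.16 (R 4.3.3, limma 3.58.1): scaling by trimmed mean of M values, the tool's filter on low counts, a robust quasi-likelihood fit of 4 group means over all 12 libraries (8 residual degrees of freedom), and the contrast of fed Crtc2 minus fed GFP with Benjamini-Hochberg adjustment at 0.05. Fold changes used the tool's default prior count, and a prior count of 2 was used only for CPM on a log scale. Standard errors were derived from the fold change and its F statistic. Alternatives were DESeq2 1.42.0, scaling by library totals, other filters, the fed libraries alone, a replicate block and each library left out in turn. Code was tested on simulated data. No 2 libraries were identical.

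Named genes were the CRTC and CREB family, up to 2 genes of smallest p in each list where none passed, and a fixed set of genes named whatever their result. Of the 48 lists, 851 distinct genes were tested. Cell type markers and those said to be chosen after their values were seen come in addition. The members and lists were chosen with earlier results of these data known. Positions are from GENCODE release 21 for mouse (GRCm38), which held 22582 of the gene identifiers. Promoter windows are from RefSeq (GRCm38.p6).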

Additional observations from a re-analysis of the deposited data

How the results depend on the processing

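The edgeR test called 0 genes in fed muscle with library totals and with a mean of at least 10 CPM. DESeq2 called 64, no filter on low counts 58 (17 higher, 41 lower) and the fed libraries alone 7. Leaving out 1 fed library gave 0 to 18 calls: 18 without GFP replicate 2 (16 higher, 2 lower), 5 without Crtc2 replicate 3 (B2m, Ighm, Irs2, Myom3 and Rap2c) and 0 without each of the other 4. Among genes of the lists the calls were 10 with DESeq2, 27 with no filter, 4 with the fed libraries alone and 0 to 4 with 1 library left out. Crtc2 was called with DESeq2 (log2 fold change 1.497) and with no filter (1.51). Of other genes named above, Nr4a3, Tnnt2, Myl2, Myl3, Myh2, H2-K1, H2-D1, H2-Q7, Ccl21a and Gaa were called only with no filter. The interaction had 111 calls with DESeq2, 67 with no filter, 0 to 3 with 1 library left out, and 0 with a replicate block over all libraries. Causes were not tested.

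With the replicate number as a block over the fed libraries, 7 genes were called, 4 of them in the lists, and Ppargc1a stood at 0.025 and Dusp1 at 0.035. Same-numbered fed libraries deviated with correlations of -0.0032, -0.12 and -0.12, against -0.077 to 0.19 for fed libraries of unlike number. With 3 libraries a group, these values cannot tell whether GFP and Crtc2 muscles came from the same animals.

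Leaving out 1 fed library turned the sign of small fold changes, which ranged over -0.10 to 0.84 for Ep300, -0.45 to 0.44 for Creb3l2, -0.53 to 0.29 for Sik1, -0.28 to 0.43 for Ppargc1a, -0.82 to 0.089 for Per1, -0.21 to 0.30 for Dusp1, -0.063 to 0.17 for Btg2, -0.13 to 0.48 for Pecam1, -0.46 to 0.46 for Mstn and -0.16 to 0.38 for Fbxo32. The median over all genes lay between -0.012 and 0.055 in all settings. In fed libraries 3 counts are 0.0928 to 0.118 CPM, and how depth bears on the zeros of low genes was not tested. The immunoglobulin ratio and the bounds of Irs2 and Vash1 without single libraries, and the family median without Crtc2, were added after seeing the data.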
